A study of Mus musculus with 53 samples.

Results

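This comparison sets mesoendodermal cells marked by T-GFP (2 arrays) against neuronal progenitor cells marked by Sox1-GFP (3 arrays), 5 of the 53 Affymetrix arrays of a study of mouse embryonic stem (ES) cells and their derivatives in 15 groups. The arrays were chosen by their titles alone. In the T-GFP group, green fluorescent protein (GFP) was under the promoter of T (brachyury), a gene of the primitive streak, and the cells were the GFP-positive ones. The Sox1-GFP group was marked by GFP under Sox1, a gene of the neural plate. The sources used here give neither the parental ES line of either reporter, nor the day of differentiation, the protocol or the sort of these cells. Line, protocol, time in culture and cell type therefore cannot be told apart in this contrast. No genotype other than the reporter is given for either group, and replicates are labelled biological with no word on what was repeated, so p-values measure the spread between arrays. Groups used for reference are neural stem cells derived from neural progenitors (NSC, 2 arrays), embryonic fibroblasts (MEF, 2 arrays) and wild-type ES cells of the lines J1, CJ7 and E14tg1. These were taken undifferentiated (day 0, 7 arrays) or 2, 6 or 8 days after the cytokine LIF, which maintains them, was removed (4, 5 and 2 arrays), and had fibroblast feeders, depleted at harvest. The remaining groups are Ezh2-null and Eed-null ES cells, undifferentiated or after LIF removal. Their arrays entered the filter, the choice of probe sets, the pooled spread and the counts over all arrays or groups.

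When pluripotent cells leave the epiblast, those exposed to Nodal, Wnt and bone morphogenetic protein (BMP) signals enter the primitive streak and form mesoderm and definitive endoderm, while cells shielded from these signals become neuroectoderm. T and Eomes, both T-box factors, and the homeobox gene Mixl1 mark the streak. SoxB1 factors, Pax6 and the Notch target Hes5 mark neural progenitors, which carry the fatty acid binding protein Fabp7 as they become radial glia. In vertebrate embryos these fates draw on the same pathways in opposite ways, through ligands on one side and secreted antagonists on the other.

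The promoters of the 2 genes that mark the cells, and those of 2 genes with very low signal in T-GFP cells, are shown because the reporters define the groups and because Fabp7 and Crabp1 differed most widely among the markers. They come from RefSeq on build GRCm38.p6, each 300 bases from 250 bases before the start of the gene to 50 bases after it, on the + strand. Of the 7 genes looked up (T, Sox1 and the markers Mixl1, Fgf8, Aplnr, Fabp7 and Crabp1), 4 had such a sequence. Capitals mark the only match to the motifs searched.
T, chr17:8434173-8434472: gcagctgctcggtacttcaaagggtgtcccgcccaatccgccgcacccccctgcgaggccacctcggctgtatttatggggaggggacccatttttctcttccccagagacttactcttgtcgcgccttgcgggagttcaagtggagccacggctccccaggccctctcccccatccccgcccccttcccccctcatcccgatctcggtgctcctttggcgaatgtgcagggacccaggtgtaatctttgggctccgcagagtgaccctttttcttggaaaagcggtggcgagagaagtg
Sox1, chr8:12395269-12395568: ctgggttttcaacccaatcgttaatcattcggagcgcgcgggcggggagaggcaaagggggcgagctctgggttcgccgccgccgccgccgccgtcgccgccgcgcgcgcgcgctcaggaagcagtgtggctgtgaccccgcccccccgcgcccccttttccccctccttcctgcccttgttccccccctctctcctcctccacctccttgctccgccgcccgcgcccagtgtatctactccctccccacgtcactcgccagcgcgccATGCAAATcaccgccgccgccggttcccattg
Fabp7, chr10:57784673-57784972: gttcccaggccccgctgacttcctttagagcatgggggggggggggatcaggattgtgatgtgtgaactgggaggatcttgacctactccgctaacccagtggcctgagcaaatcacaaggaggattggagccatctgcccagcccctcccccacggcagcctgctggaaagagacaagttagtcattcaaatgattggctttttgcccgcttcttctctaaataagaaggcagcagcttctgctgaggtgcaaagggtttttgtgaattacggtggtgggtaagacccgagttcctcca
Crabp1, chr9:54764498-54764797: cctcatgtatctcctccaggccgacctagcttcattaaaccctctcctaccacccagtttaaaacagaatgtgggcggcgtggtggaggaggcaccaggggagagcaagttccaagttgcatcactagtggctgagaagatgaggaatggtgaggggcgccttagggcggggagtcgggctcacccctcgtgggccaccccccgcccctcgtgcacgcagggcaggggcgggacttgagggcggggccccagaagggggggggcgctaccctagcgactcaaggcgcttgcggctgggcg
The Sox1 stretch held 37 CpG dinucleotides, a number that 95.0% of the 32851 promoters in the table do not exceed. The T and Crabp1 stretches held 17 each (70.3% at or under) and the Fabp7 stretch held 6 (47.9%), against a median of 7 over all promoters. Both strands were searched for 10 motifs, of which some overlap: AGGTGTGA (T-box; in 1.28% of all promoters) and its shorter form GGTGTGA (3.98%), CTTTGAT (TCF/LEF; 3.73%), AATCCACA (FoxH1; 0.86%), CAGACAG (SMAD; 7.73%), ACAATG (12.57%) and ACAAAG (18.71%, both SOX), the octamer ATGCAAAT (1.74%), TAATTA (homeodomain; 5.29%) and TATAAA (13.62%). The octamer, which POU factors bind, lay 19 bases after the start in the Sox1 stretch. The stretches of T, Fabp7 and Crabp1 held none of these letters, and nothing follows from that about any factor.

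The deposited values are linear signals, 1 per probe set and array, and were compared as log2(signal + 32), which understates the change of dim genes. Array medians lay at 59.1 and 56.6 in T-GFP arrays and between 57.6 and 58.3 in Sox1-GFP arrays. Over the 13807 tested genes, the T-GFP arrays correlated at r = 0.982 with each other, Sox1-GFP arrays at 0.989 to 0.995, and arrays of different groups at 0.882 to 0.901. Between the T-GFP arrays 144 genes differed by 2-fold or more, against 4 to 56 between pairs of Sox1-GFP arrays and 1408 to 1717 across the groups. A score built from the disagreement of probe sets of the same gene, which takes up 41.1% of that disagreement over all arrays, was -6.2 and -6.5 in T-GFP arrays and -21.8 to -18.8 in Sox1-GFP arrays. It moves with the groups, and its part in the results was not tested.

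A gene was called where the limma test, fitted over all arrays and adjusted over all tested genes by the Benjamini-Hochberg method, gave an adjusted p below 0.05 and the difference was 2-fold or more. Differences are T-GFP minus Sox1-GFP on the log2 scale, with their SE (n = 2 and 3 arrays). The SE and the p-values use a spread pooled over all groups of the study. They therefore do not measure the spread of the T-GFP and Sox1-GFP arrays alone. In total 1425 of 13807 genes (10.3%) were called: 529 (3.83%) were higher and 896 (6.49%) lower in T-GFP cells. Of the called genes 153 were higher and 184 lower by at least 4-fold. The median difference over all tested genes was -0.07. The T-GFP and Sox1-GFP arrays did not overlap for 9279 genes (67.2%), so a lack of overlap is the common state of a gene here and is given below only as a description. Quantile normalisation moved the balance to 633 higher and 739 lower genes (46.1% higher, against 37.1%).

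**Figure D1:**
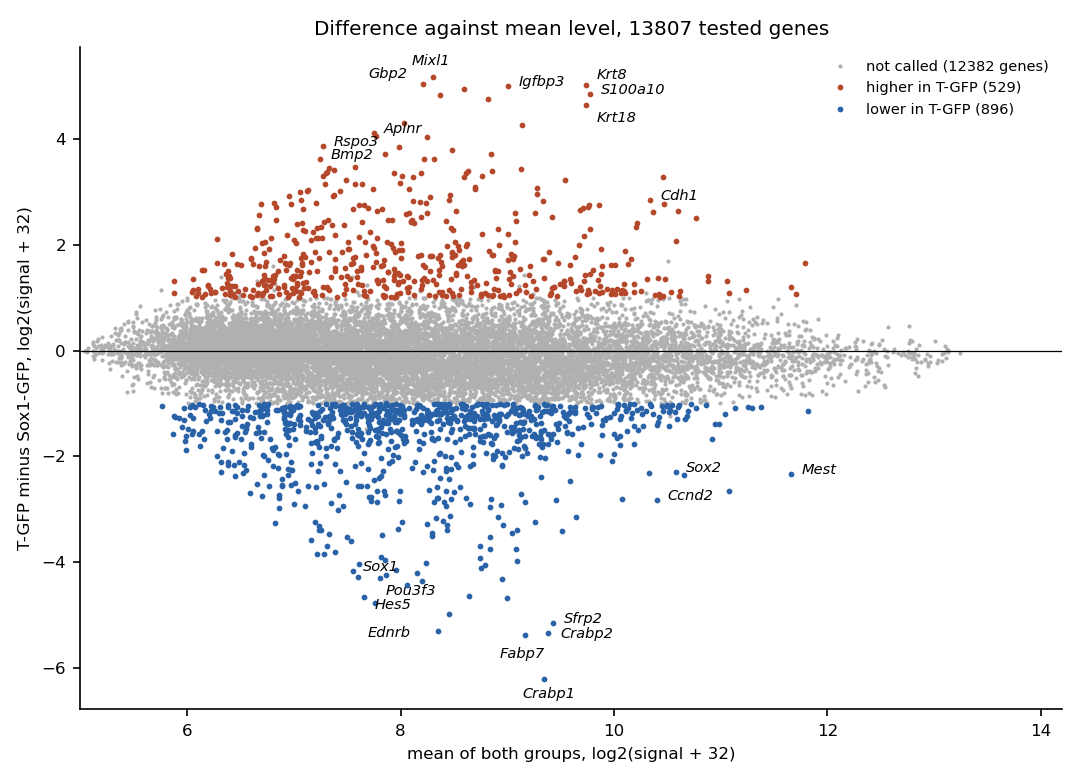
The difference between T-GFP and Sox1-GFP cells (vertical axis, log2 of signal + 32) is plotted against the mean of both groups (horizontal axis) for each of 13807 tested genes. The 529 genes called higher in T-GFP cells lie above the line and the 896 called lower below it, with Mixl1 (5.16) and Crabp1 (-6.20) at the ends.

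One further feature of the arrays moves with the groups. Hprt, the purine salvage enzyme that is deleted in some widely used mouse ES lines, had signals of 1358.3 and 1155.1 in T-GFP arrays, against 84.0, 91.6 and 96.7 in Sox1-GFP arrays. Over the whole series it was at 103.8 or less in 8 of 53 arrays, and at 1055.3 or more in the others. Those 8 were the 3 Sox1-GFP arrays, both NSC arrays and replicates 1 to 3 of wild-type ES cells at day 0, which the labels give as J1, J1 and CJ7. Replicates 4 to 7, labelled CJ7 and E14tg1, stood at 2250.3 to 2365.9, so the CJ7 arrays of day 0 lie on both sides. Some E14 derivatives are known to lack Hprt, yet the arrays labelled E14tg1 are high, and whether the line names of these titles are in the right order is not known here. The Y-linked gene Eif2s3y followed the same line, with 511.7 and 715.8 in T-GFP arrays and 80.8, 81.8 and 93.3 in Sox1-GFP arrays, against 60.6 to 104.8 in ES replicates 1 to 3 and 528.0 to 578.5 in replicates 4 to 7. The Sox1-GFP arrays thus share low Hprt and Eif2s3y with some arrays labelled wild-type ES cells, whereas the T-GFP arrays share high levels with others. The differences were 3.39 ± 0.77 for Hprt (SE; adjusted p = 0.00053) and 2.44 ± 0.88 for Eif2s3y (adjusted p = 0.028). The call of Eif2s3y was lost on leaving out either T-GFP array or Sox1-GFP replicate 1 or 2 (adjusted p = 0.058 to 0.16).

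Among genes called higher in T-GFP cells, some were also low in those ES arrays. ES replicates 4 to 7 were all at least 2-fold above replicates 1 to 3 for 47 of the 529 higher genes (8.88%), for 4 of the 896 lower genes (0.446%) and for 0.927% of the 13807 tested genes. Among the 53 genes that were higher by 8-fold or more the share was 14 (26.4%), and these include Gbp2, Gbp2b, Krt8, Krt18, Krt19, S100a6 and Igfbp3. Mixl1, Fgf8, Aplnr and the neural markers are not among them. The score from the disagreement of probe sets also parted these ES arrays: replicates 1 to 3 ran from -9.8 to -6.7, while replicates 4 to 7 ran from -2.6 to -0.6. By score the T-GFP arrays (-6.2 and -6.5) lay nearer to replicates 1 to 3, although their Hprt was high. Low scores were not confined to arrays with low Hprt: the MEF arrays, with high Hprt, scored -12.2 and -14.1. The count of genes above, chosen after the values were seen, describes undifferentiated cells. The part of the parental line or of the score in the contrast was not tested.

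The markers separated the groups in the direction of their labels. Mixl1, a homeobox gene of the streak, had signals of 2440.0 and 1409.2 in T-GFP arrays, against 19.7, 24.1 and 18.6 in Sox1-GFP arrays. Aplnr, the apelin receptor of early mesoderm, had 861.5 and 861.7 in T-GFP arrays and 15.1, 20.6 and 23.7 in Sox1-GFP arrays. Fgf8, a growth factor of the streak, had 933.0 and 1258.3 in T-GFP arrays and 48.6, 40.5 and 98.2 in Sox1-GFP arrays. The lowest T-GFP value was far above the highest Sox1-GFP value for each of the 3, and the differences were 5.16 ± 0.43 for Mixl1 (adjusted p = 3.5e-13), 4.11 ± 0.19 for Aplnr (adjusted p = 2e-21) and 3.61 ± 0.46 for Fgf8 (adjusted p = 2.2e-08). No probe set used here carries the symbol T, so the transcript of the reporter gene was not analysed here.

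The neural markers ran the other way. Sox1 itself had signals of 13.3 and 11.6 in T-GFP arrays and 745.5, 752.0 and 788.7 in Sox1-GFP arrays, a difference of -4.16 ± 0.21 (adjusted p = 3.6e-20). Fabp7 had 71.0 and 45.5 in T-GFP arrays and 3660.8, 3577.2 and 3722.9 in Sox1-GFP arrays (-5.37 ± 0.18, adjusted p = 1e-26). Crabp1, which binds retinoic acid in the cytoplasm, had 59.0 and 30.8 in T-GFP arrays and 5680.2, 5391.4 and 5513.6 in Sox1-GFP arrays (-6.20 ± 0.24, adjusted p = 1.3e-24). The T-GFP signals of Sox1, Fabp7 and Crabp1 lie near or below the medians of those arrays. These signals come from whole populations, in which fewer cells of a type and less RNA per cell cannot be told apart.

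**Figure D2:**
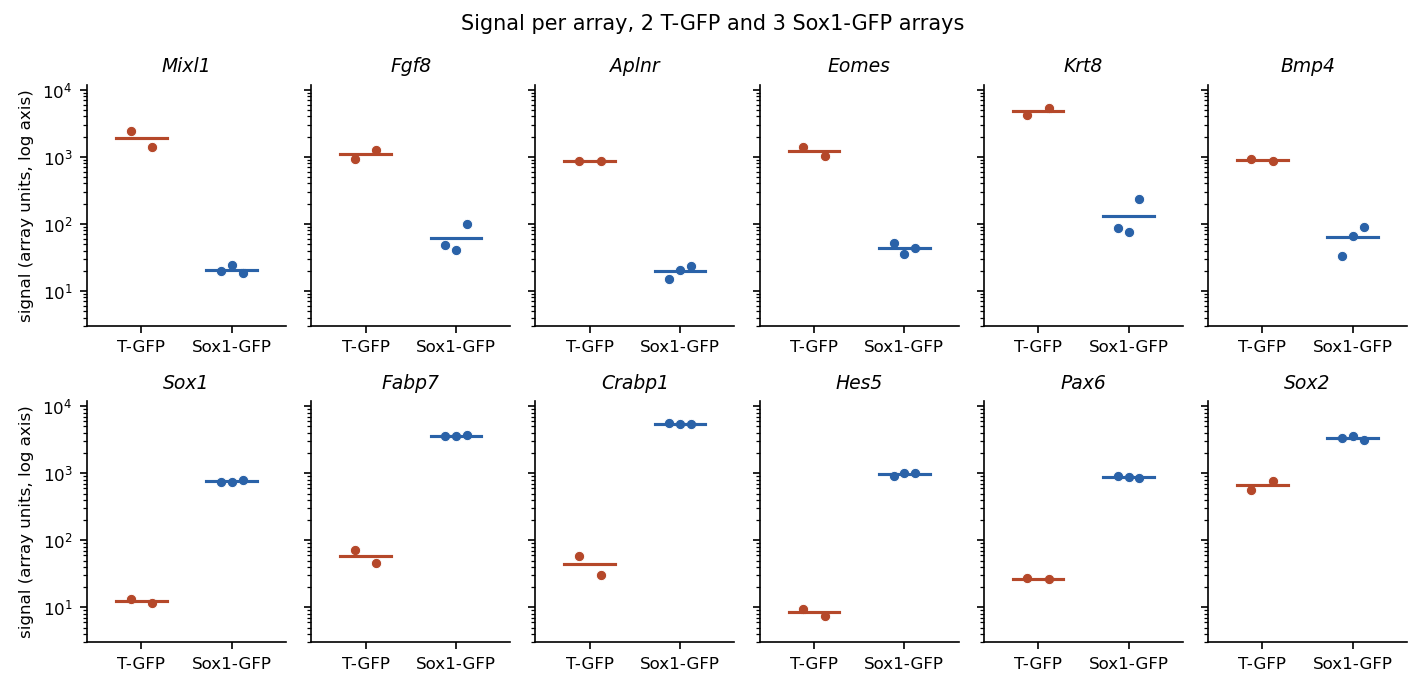
Signal per array (log axis, array units) of 12 genes, with the 2 T-GFP arrays on the left and the 3 Sox1-GFP arrays on the right of each panel and a bar at the mean. The upper 6 genes are higher and the lower 6 lower in T-GFP cells, and in none of the 12 do the groups overlap.

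The marker lists put the same contrast in sums. They include the genes given above (Mixl1, Fgf8, Aplnr, Sox1, Fabp7 and Crabp1), so the sums are not separate evidence. The 11 tested mesoendoderm markers summed to 6469.5 to 8014.8 in T-GFP arrays and 436.6 to 545.1 in Sox1-GFP arrays, and all 11 were called higher. Among them, Sox17 and Foxa2 differed by only 0.57 and 0.35 without T-GFP replicate 2. The 11 neural progenitor markers summed to 1582.5 to 1756.4 in T-GFP arrays and 19049.7 to 19347.2 in Sox1-GFP arrays, with 10 of 11 called lower; the intermediate filament gene Nes (478.1 and 546.0 in T-GFP and 414.0, 428.5 and 433.3 in Sox1-GFP arrays) was not called. Another probe set of Nes went the other way, with a mean of 300.2 in T-GFP arrays and 735.1 in Sox1-GFP arrays (-1.21). Neuron markers summed to 1525.0 to 2217.1 in T-GFP arrays and 3624.4 to 3700.1 in Sox1-GFP arrays (3 of 5 lower). Trophoblast markers summed to 452.1 to 488.4 in T-GFP arrays and 124.0 to 149.2 in Sox1-GFP arrays (2 of 3 tested higher). The markers of undifferentiated ES cells summed to 1242.9 to 1508.3 in T-GFP arrays and 751.5 to 1302.6 in Sox1-GFP arrays (1 of 6 lower). Fibroblast markers summed to 361.5 to 497.4 in T-GFP arrays and 282.7 to 341.2 in Sox1-GFP arrays, and neural crest markers to 166.9 to 186.9 in T-GFP arrays and 203.3 to 254.7 in Sox1-GFP arrays. Of the fibroblast and the neural crest markers none was called. Their part in the results below was not tested.

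Of 29 tested regulators of the primitive streak and early mesoderm, 18 were called higher and 2 lower, with a median difference of 1.84 (all genes, -0.07). Eomes, a T-box factor that streak cells need to leave the epiblast, had 1392.1 and 1040.1 in T-GFP arrays and 52.4, 35.3 and 43.1 in Sox1-GFP arrays (4.04 ± 0.45, adjusted p = 1.1e-09). Gsc, a homeobox gene of the organiser, had 230.0 and 294.0 in T-GFP arrays and 11.2, 11.5 and 14.7 in Sox1-GFP arrays (2.72 ± 0.27, adjusted p = 5.3e-11). Mesp1, a factor of the first mesoderm to leave the streak, had 452.9 and 160.2 in T-GFP arrays and 53.9, 59.3 and 66.0 in Sox1-GFP arrays (1.74 ± 0.25, adjusted p = 4.9e-07). Hand1, a factor of extraembryonic and cardiac mesoderm, differed by 3.28 ± 0.49 (0.51 on another probe set), Lhx1 by 2.67 ± 0.26, the receptor genes Pdgfra by 2.34 ± 0.46 and Kdr by 1.79 ± 0.23, and Cdx2, a gene of the posterior embryo, by 1.85 ± 0.19.

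Some genes of the list did not follow. Pcdh8, a protocadherin of paraxial mesoderm in the embryo, was lower, with 92.3 and 66.8 in T-GFP arrays and 1899.6, 1811.3 and 1269.5 in Sox1-GFP arrays (-3.91 ± 0.21, adjusted p = 2.2e-19). The Notch ligand Dll1, which both paraxial mesoderm and neural progenitors use, was lower as well (264.5 and 285.6 in T-GFP and 693.8, 725.8 and 640.4 in Sox1-GFP arrays; -1.23 ± 0.12, adjusted p = 4.7e-11). The somite genes Tcf15 (-0.27 ± 0.36, adjusted p = 0.61) and Mesp2 (0.05 ± 0.21, adjusted p = 0.88) were not called, and their arrays overlapped between the groups.

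The signalling lists were examined in the order of ligands, receptors and targets. The shares to set beside each count are 3.83% called higher and 6.49% called lower over all tested genes. Of 16 tested Nodal and Activin genes, 4 were called higher and 2 lower (median 0.23). Nodal, the ligand, had 1437.8 and 2179.0 in T-GFP arrays and 777.6, 762.9 and 648.0 in Sox1-GFP arrays (1.25 ± 0.17, adjusted p = 6.1e-08; 0.95 without T-GFP replicate 2, under 2-fold). Its co-receptor Tdgf1 had 2710.5 and 2507.3 in T-GFP arrays and 683.4, 747.2 and 230.3 in Sox1-GFP arrays (2.32 ± 0.42, adjusted p = 2.3e-05). The antagonist Lefty2 (642.1 and 452.4 in T-GFP and 92.2, 71.4 and 53.4 in Sox1-GFP arrays) and the nuclear partner Foxh1 (740.4 and 558.5 in T-GFP and 144.4, 135.5 and 193.7 in Sox1-GFP arrays) were higher too. The type II receptors Acvr2a (-1.48 ± 0.15) and Acvr2b (-1.46 ± 0.35) were lower in T-GFP cells, and a second probe set of Acvr2b differed by only 0.07. Lefty1 was not called (0.24 ± 0.43, adjusted p = 0.71).

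In the Wnt list, 8 of 38 tested genes were called higher and 5 lower, and the median of 0.04 lay near that of all genes. The higher ones are ligands, a co-agonist and targets. Rspo3, a secreted amplifier of Wnt signals, had 508.2 and 613.2 in T-GFP arrays and 8.8, 7.0 and 10.4 in Sox1-GFP arrays (3.86 ± 0.27, adjusted p = 1.2e-15). Sp5, a direct Wnt target, had 727.2 and 1003.5 in T-GFP arrays and 21.1, 17.6 and 25.9 in Sox1-GFP arrays (4.05 ± 0.43, adjusted p = 2.4e-10). The ligand Wnt5a differed by 2.66 ± 0.35, the target and antagonist Dkk1 by 3.15 ± 0.33 and the nuclear effector Lef1 by 1.90 ± 0.42. Among the lower genes were secreted antagonists. Sfrp2 had 104.3 and 66.6 in T-GFP arrays and 4305.1, 4360.9 and 3590.8 in Sox1-GFP arrays (-5.15 ± 0.28, adjusted p = 3.9e-19), and Sfrp1 had 74.0 and 70.9 in T-GFP arrays and 1722.5, 1776.2 and 1764.6 in Sox1-GFP arrays (-4.10 ± 0.35, adjusted p = 7.4e-13; -2.62 to -0.85 on 4 other probe sets). The receptor Fzd3 was lower too (-3.74 ± 0.40), but 3 other probe sets of it differed by only -0.70, -0.98 and -1.71, whereas Fzd7 (-0.55 ± 0.19) and the ligand exporter Wls (0.02 ± 0.38) were not called. The lower count was 3 with quantile normalisation or a pseudocount 4 times higher, 8 with a pseudocount 4 times lower or array weights, 9 at a minimum of 1.5-fold and 10 with no minimum fold.

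The BMP list held 10 higher and 3 lower genes of 25 tested, with a median of 0.81. Bmp2 had 479.5 and 520.6 in T-GFP arrays and 14.4, 7.0 and 13.6 in Sox1-GFP arrays (3.61 ± 0.32, adjusted p = 2.1e-12). Bmp4 had 936.1 and 875.1 in T-GFP arrays and 32.8, 65.1 and 89.9 in Sox1-GFP arrays (3.36 ± 0.31, adjusted p = 6.1e-12). Neither ligand overlapped between the groups. The BMP targets Msx1 (2.60 ± 0.22), Msx2 (2.57 ± 0.25) and Tbx3 (2.85 ± 0.32) were higher in T-GFP cells as well. Bambi, Smad7 and the antagonist Nog were also called higher. The Id genes, which encode inhibitors of helix-loop-helix factors and are BMP targets, divided: Id1 was higher (1.59 ± 0.49, adjusted p = 0.0094; 1.21 with adjusted p = 0.16 without T-GFP replicate 1) and Id4 lower (59.0 and 46.5 in T-GFP and 609.5, 868.4 and 831.1 in Sox1-GFP arrays; -3.23 ± 0.23, adjusted p = 2.9e-15). Id2 was lower as well (-1.15), and Id3 was not called. Bmp6 was lower too (-1.90 ± 0.16).

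In the FGF list 7 of 27 tested genes were called higher and 3 lower (median 0.27), and the ligands went both ways. Fgf5, a ligand of the late epiblast, had 679.4 and 1304.3 in T-GFP arrays and 101.7, 91.8 and 95.2 in Sox1-GFP arrays (2.93 ± 0.57, adjusted p = 6.3e-05). Fgf17, a close relative of Fgf8, differed by 1.83 ± 0.23 (adjusted p = 2.8e-08). Fgf15, a ligand of the neural tube, was lower, with 130.8 and 68.6 in T-GFP arrays and 485.2, 450.0 and 807.2 in Sox1-GFP arrays (-2.21 ± 0.25, adjusted p = 2.2e-09), as was the receptor Fgfr3 (-1.51 ± 0.24). The feedback inhibitor Dusp6, a phosphatase of the ERK pathway, was higher (1.62 ± 0.26, adjusted p = 3.7e-06).

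Of 24 tested Notch genes, 8 were called lower, 1 higher and 15 not at all, with a median of -0.64. The 1 higher gene was Hes1 (1.04), which was not called with a pseudocount 4 times higher or without Sox1-GFP replicate 1, among other alternatives. Hes5, a target of the receptor, had 9.5 and 7.4 in T-GFP arrays and 907.3, 1010.6 and 1022.0 in Sox1-GFP arrays (-4.64 ± 0.13, adjusted p = 1.3e-29). Notch1, a receptor, had 248.8 and 191.5 in T-GFP arrays and 929.0, 924.1 and 620.8 in Sox1-GFP arrays (-1.75 ± 0.26, adjusted p = 5.6e-07; -0.74 on another probe set), and the ligand Jag1 had 141.4 and 187.6 in T-GFP arrays and 700.4, 813.4 and 985.7 in Sox1-GFP arrays (-2.14 ± 0.35; another probe set differed by 0.09). The lower count was 5 with a pseudocount 4 times higher and 13 with no minimum fold. Of 16 tested Hedgehog genes 4 were called lower and 1 higher (median -0.27), against 6.49% lower and 3.83% higher over all tested genes. The higher one was Foxf1 (1.85), and the co-receptor Boc was among the lower ones (-1.62 ± 0.15). With quantile normalisation or with all probe sets of a gene averaged the lower count was 2, and with no minimum fold it was 6.

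**Figure D3:**
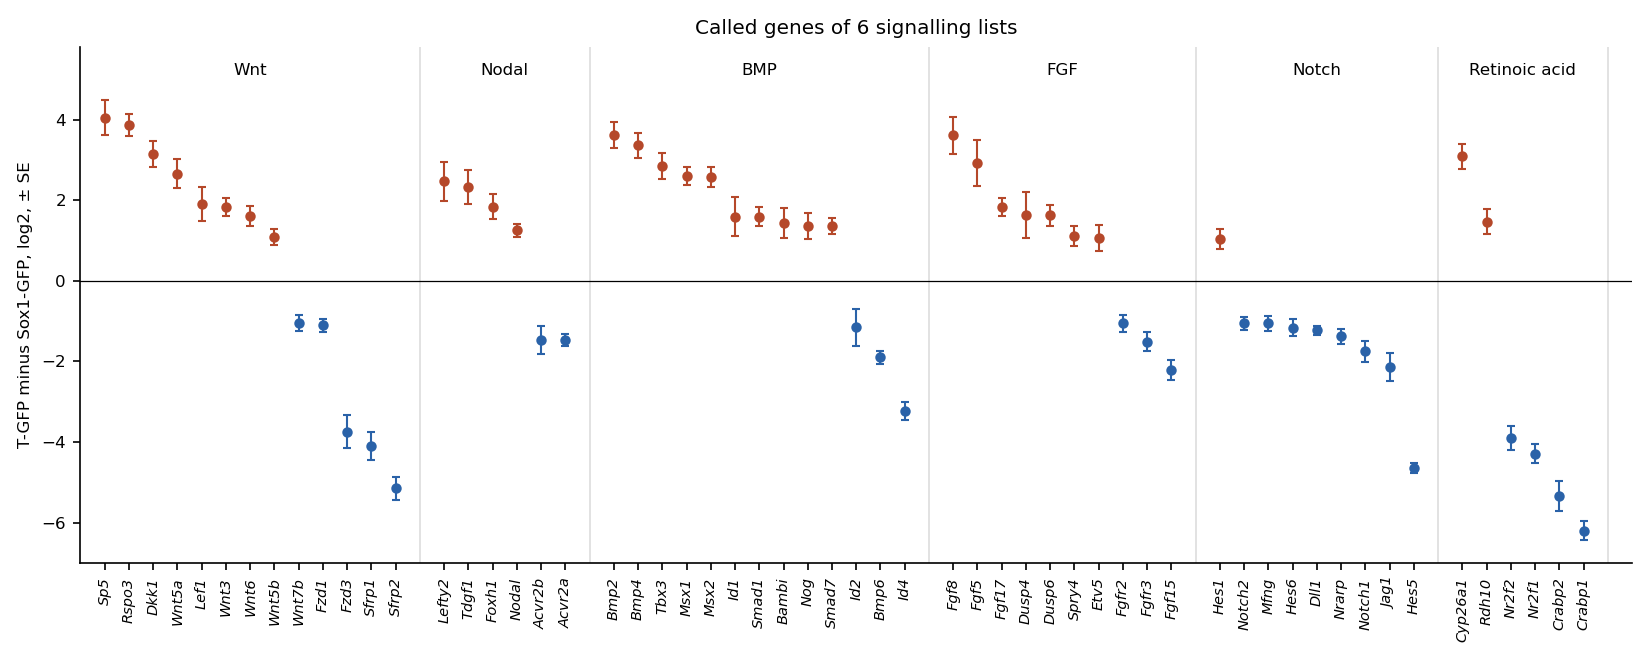
Difference between T-GFP and Sox1-GFP cells (log2 of signal + 32, with its SE) for every called gene of 6 lists. Genes higher in T-GFP cells are above 0, from 4.05 for Sp5 downwards, and lower ones below it, down to -6.20 for Crabp1; the BMP list lies mostly above 0 and the Notch list mostly below.

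Of 17 tested retinoic acid genes, 2 were called higher, 4 lower and 11 not at all (median 0.11). Over all tested genes 3.83% were called higher and 6.49% lower. Cyp26a1, the enzyme that degrades retinoic acid, had 1405.7 and 986.6 in T-GFP arrays and 89.4, 105.1 and 139.5 in Sox1-GFP arrays (3.09 ± 0.31, adjusted p = 6.2e-11). The other higher gene, Rdh10, belongs to the synthesis of retinoic acid and had 365.5 and 907.7 in T-GFP arrays and 147.6, 167.5 and 269.6 in Sox1-GFP arrays (1.47 ± 0.31, adjusted p = 0.00023; 0.85 with adjusted p = 0.093 without T-GFP replicate 2). Crabp2, which carries retinoic acid to its receptors, had 68.8 and 76.8 in T-GFP arrays and 4344.7, 4301.5 and 3981.8 in Sox1-GFP arrays (-5.34 ± 0.36, adjusted p = 6.2e-16). The orphan nuclear receptors Nr2f1 (-4.29 ± 0.24) and Nr2f2 (-3.90 ± 0.29), known as retinoic acid responsive genes, were lower beside it.

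Of 23 tested Hox genes, 5 were called lower and 1 higher, against 6.49% lower and 3.83% higher over all tested genes. The lower ones are the anterior genes Hoxa2, Hoxb2, Hoxb3, Hoxa3 and Hoxb4, which the hindbrain uses. Hoxa2 had 13.3 and 12.0 in T-GFP arrays and 599.2, 668.9 and 518.8 in Sox1-GFP arrays (-3.81 ± 0.14, adjusted p = 1e-24), and Hoxb2 had 144.0 and 110.8 in T-GFP arrays and 1429.4, 1603.9 and 1547.6 in Sox1-GFP arrays (-3.30 ± 0.32, adjusted p = 3.8e-11). The higher one is Hoxd9, with 277.5 and 249.3 in T-GFP arrays and 51.4, 40.4 and 23.3 in Sox1-GFP arrays (2.09 ± 0.23, adjusted p = 1.2e-09). Egr2, a zinc finger gene of the hindbrain, had a mean of 60.5 in T-GFP arrays, against 381.0, 311.8 and 1311.0 in Sox1-GFP arrays (-2.65 ± 0.31, adjusted p = 3.1e-09), whereas the forebrain and midbrain gene Otx2 was not called (0.52 ± 0.53, adjusted p = 0.48). Among the 17 Hox genes not called were the anterior genes Hoxb1, Hoxd1, Hoxd3 and Hoxa4. The posterior genes Hoxa9, Hoxa10, Hoxa11, Hoxc10, Hoxd10 and Hoxd13 were not called either. The median over the Hox list was 0.10, and 3 genes were lower when all probe sets of a gene were averaged.

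Among 35 tested transcription factors of neural progenitors, 19 were called lower and 2 higher (median -1.27). Pou3f3, a POU factor of the developing brain, had 9.3 and 10.1 in T-GFP arrays and 1244.7, 1245.4 and 857.7 in Sox1-GFP arrays (-4.76 ± 0.14, adjusted p = 4.7e-29). Pax6, a regulator of the neural tube and eye, had 27.8 and 26.1 in T-GFP arrays and 902.2, 890.9 and 850.3 in Sox1-GFP arrays (-3.95 ± 0.20, adjusted p = 4.8e-20). Sox3 had 150.6 and 109.0 in T-GFP arrays and 1796.8, 1686.3 and 1655.4 in Sox1-GFP arrays (-3.44 ± 0.20, adjusted p = 3.2e-18). The third SoxB1 factor, Sox2, which pluripotent cells share with neural ones, had 565.8 and 762.9 in T-GFP arrays and 3399.6, 3593.2 and 3127.8 in Sox1-GFP arrays (-2.30 ± 0.40, adjusted p = 1.2e-05), and the groups did not overlap. Meis1 (-4.42 ± 0.43), Sox21 (-4.25 ± 0.20), Zic1 (-4.21 ± 0.32), Irx2 (-4.00 ± 0.15) and Irx3 (-3.98 ± 0.46) were lower by similar amounts. Sox4 (-0.66 ± 0.18, adjusted p = 0.0034) and Pou3f1 (-0.07 ± 0.39, adjusted p = 0.91) were not called. Other probe sets of Sox4 differed by -1.53 to 0.08. Pax3 (-0.33) and Pax7 (-0.43) were not called on the probe sets used. Other probe sets differed by -0.89 and -3.45 for Pax3 and by -3.69 for Pax7. The 2 higher genes of the list were Msx1 and Hes1.

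Of 20 tested genes of radial glia and neural stem cells, 7 were called lower, 1 higher and 12 not at all (median -0.43). The higher one, Cd44 (1.92 ± 0.66, adjusted p = 0.02), was no longer called without either T-GFP array or without Sox1-GFP replicate 1 (adjusted p = 0.055 to 0.11). Ednrb, an endothelin receptor, had 18.1 and 22.8 in T-GFP arrays and 2211.3, 2362.1 and 1558.5 in Sox1-GFP arrays (-5.29 ± 0.29, adjusted p = 2.3e-19). Other probe sets of Ednrb differed by -0.79 and -1.86. The RNA-binding protein gene Msi1 differed by -2.83 ± 0.45 and the phosphatase gene Ptprz1 by -1.88 ± 0.19. Gfap, the filament of mature astrocytes, was dim in all 5 arrays (124.4 and 106.1 in T-GFP and 79.4, 76.7 and 68.9 in Sox1-GFP arrays) and was not called.

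Of 31 tested genes of neuronal commitment, 19 were called lower and 1 higher (median -1.53). Nhlh2 had 9.7 and 5.2 in T-GFP arrays and 679.6, 650.4 and 337.4 in Sox1-GFP arrays (-3.84 ± 0.17, adjusted p = 1.2e-22). Dcx, a microtubule protein of migrating neurons, had 15.3 and 16.4 in T-GFP arrays and 511.7, 498.7 and 280.9 in Sox1-GFP arrays (-3.23 ± 0.15, adjusted p = 2e-21). Tubb3, the neuronal tubulin, had 74.1 and 30.4 in T-GFP arrays and 705.6, 606.6 and 406.1 in Sox1-GFP arrays (-2.86 ± 0.43, adjusted p = 9.9e-07). In all 3 genes Sox1-GFP replicate 3 was the lowest of its group. Stmn2 (-0.38 ± 0.35), Nefl (-0.72 ± 0.47) and Elavl3 (-0.65 ± 0.18) were not called on the probe sets used, whereas other probe sets differed by -1.35 for Stmn2, -1.42 for Nefl and -1.80 for Elavl3. The lower count was 13 of 31 with a pseudocount 4 times higher, and 11 of the 18 genes left when genes had to pass the 75th percentile of an array. The 1 higher gene of the list, Lhx1, also belongs to the streak list.

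Of 38 tested adhesion and guidance genes of neural tissue, 15 were called lower and 3 higher (median -0.68). Ptn, a heparin-binding growth factor, had 29.7 and 31.9 in T-GFP arrays and 2067.7, 1837.9 and 1904.5 in Sox1-GFP arrays (-4.97 ± 0.41, adjusted p = 1.9e-13), and the ephrin receptors Epha4 (-2.91 ± 0.26) and Epha7 (-2.65 ± 0.18) were lower too. The semaphorin receptors Nrp1 (748.8 and 720.8 in T-GFP and 79.8, 74.7 and 77.9 in Sox1-GFP arrays; 2.81 ± 0.37) and Nrp2 (2.41 ± 0.46), which blood vessels also use, were higher in T-GFP cells. Other probe sets of Nrp1 differed by 2.27, 2.51 and -0.49. The lower count was 7 with a pseudocount 4 times higher and 23 with no minimum fold.

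In the list of epithelial to mesenchymal transition and cadherins, 12 of 27 tested genes were called higher and 1 lower (median 1.33). The higher genes include Cdh1, Epcam, Esrp1, the claudins Cldn6 and Cldn7 and 3 keratins, which are epithelial, but also Snai1 (2.12 ± 0.26), a repressor of Cdh1, the matrix gene Fn1 (1.65 ± 0.28), the matrix protease gene Mmp14 (2.20 ± 0.23) and the integrin Itga5 (1.33 ± 0.48), which mesenchymal cells use. The call of Itga5 was lost without either T-GFP array (1.53 without replicate 1 and 1.13 without replicate 2). It was also lost without Sox1-GFP replicate 1 or 3 (adjusted p = 0.072 and 0.051). Fitted on the 5 arrays compared alone, Itga5 had an adjusted p of 0.00038. The epithelial genes Esrp2 (0.89 ± 0.22), Ocln (0.77 ± 0.20), Crb3 (0.40 ± 0.19) and Grhl2 (0.36 ± 0.18) were not called. Cdh1, the epithelial cadherin that streak cells lose on leaving the epithelium, had 2783.8 and 4251.8 in T-GFP arrays and 468.1, 410.6 and 483.9 in Sox1-GFP arrays (2.84 ± 0.18, adjusted p = 3.9e-17). Cdh2, the cadherin of both mesoderm and neural tube, had 1501.7 and 1816.7 in T-GFP arrays and 2407.4, 2438.7 and 1901.5 in Sox1-GFP arrays and was not called (-0.43 ± 0.34, adjusted p = 0.36). The 2 desmosome genes among the 20 largest rises were Dsp (4.75 ± 0.39) and Dsg2 (3.78 ± 0.21). Dsp had 2281.8 and 2332.6 in T-GFP arrays and a mean of 58.7 in Sox1-GFP arrays. Dsg2 had 1090.9 and 1523.0 in T-GFP arrays and 63.1, 61.4 and 68.6 in Sox1-GFP arrays. Other probe sets of Dsg2 differed by 0.72 to 4.02. The tight junction genes Cldn6 (3.27 ± 0.30) and Cldn7 (2.78 ± 0.32) were higher with Dsp and Dsg2. Epcam, an adhesion molecule of epithelia and ES cells, differed by 2.83 ± 0.27, but by 0.05 on another probe set. Zeb1, a repressor of Cdh1, was the 1 lower gene, with 88.6 and 99.3 in T-GFP arrays and 872.6, 942.3 and 845.2 in Sox1-GFP arrays (-2.87 ± 0.38); another probe set differed by -0.25, and the call was lost on averaging them.

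The keratins had wide differences. Krt8 had 4270.8 and 5440.7 in T-GFP arrays and 87.6, 76.7 and 231.4 in Sox1-GFP arrays (5.01 ± 0.80, adjusted p = 2.4e-06). Its partner Krt18 had 3244.7 and 5533.3 in T-GFP arrays and 95.0, 99.0 and 273.0 in Sox1-GFP arrays (4.64 ± 0.71, adjusted p = 1.1e-06). Undifferentiated ES cells parted on the same genes: Krt8 was at 78.5 to 109.9 in day 0 replicates 1 to 3, which share low Hprt with the Sox1-GFP arrays, and at 1482.2 to 2048.6 in replicates 4 to 7. For Cdh1 the ES arrays of day 0 had a median of 2533.4. Cell type and parental line cannot be told apart in the keratin difference.

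The calls of definitive endoderm genes rested partly on 1 array. Of 17 tested, 6 were called higher and none lower (median 0.55). The higher count was 3 without T-GFP replicate 2 and 2 with a pseudocount 4 times higher. Sox17 had 66.8 and 257.5 in T-GFP arrays and 21.3, 20.1 and 74.9 in Sox1-GFP arrays, which overlap (1.34 ± 0.51, adjusted p = 0.037; 0.57 with adjusted p = 0.57 without T-GFP replicate 2). Foxa2 had 43.0 and 166.7 in T-GFP arrays and 16.0, 36.4 and 29.6 in Sox1-GFP arrays (1.06 ± 0.40, adjusted p = 0.035; 0.35 with adjusted p = 0.65 without T-GFP replicate 2). Without Sox1-GFP replicate 1 the 2 calls were lost as well (adjusted p = 0.11 each). Gata6, a factor of endoderm and cardiac mesoderm, had 209.5 and 163.2 in T-GFP arrays and 36.5, 31.0 and 49.8 in Sox1-GFP arrays (1.62 ± 0.24, adjusted p = 5.6e-07). T-GFP replicate 2 had the higher signal for Sox17 and Foxa2, and replicate 1 for Gata6, Mesp1, Kdr and Pdgfra. Streak genes went both ways, with Mixl1 and Eomes higher in replicate 1 and Fgf8 and Gsc higher in replicate 2.

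Of 15 tested cardiac and muscle genes 1 was called higher (Acta1), and of 19 blood and endothelial genes 2 (Lmo2 and Etv2), against 3.83% of all genes. None of either list was called lower. Of 15 tested trophoblast genes 7 were higher (median 0.94), of which Eomes, Hand1 and Cdx2 are also streak genes and Krt8 and Krt18 are also epithelial ones. Tfap2c had 630.9 and 568.9 in T-GFP arrays and 26.9, 23.4 and 25.7 in Sox1-GFP arrays (3.46 ± 0.55, adjusted p = 2.7e-06; 0.91 and 1.39 on other probe sets).

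**Figure D4:**
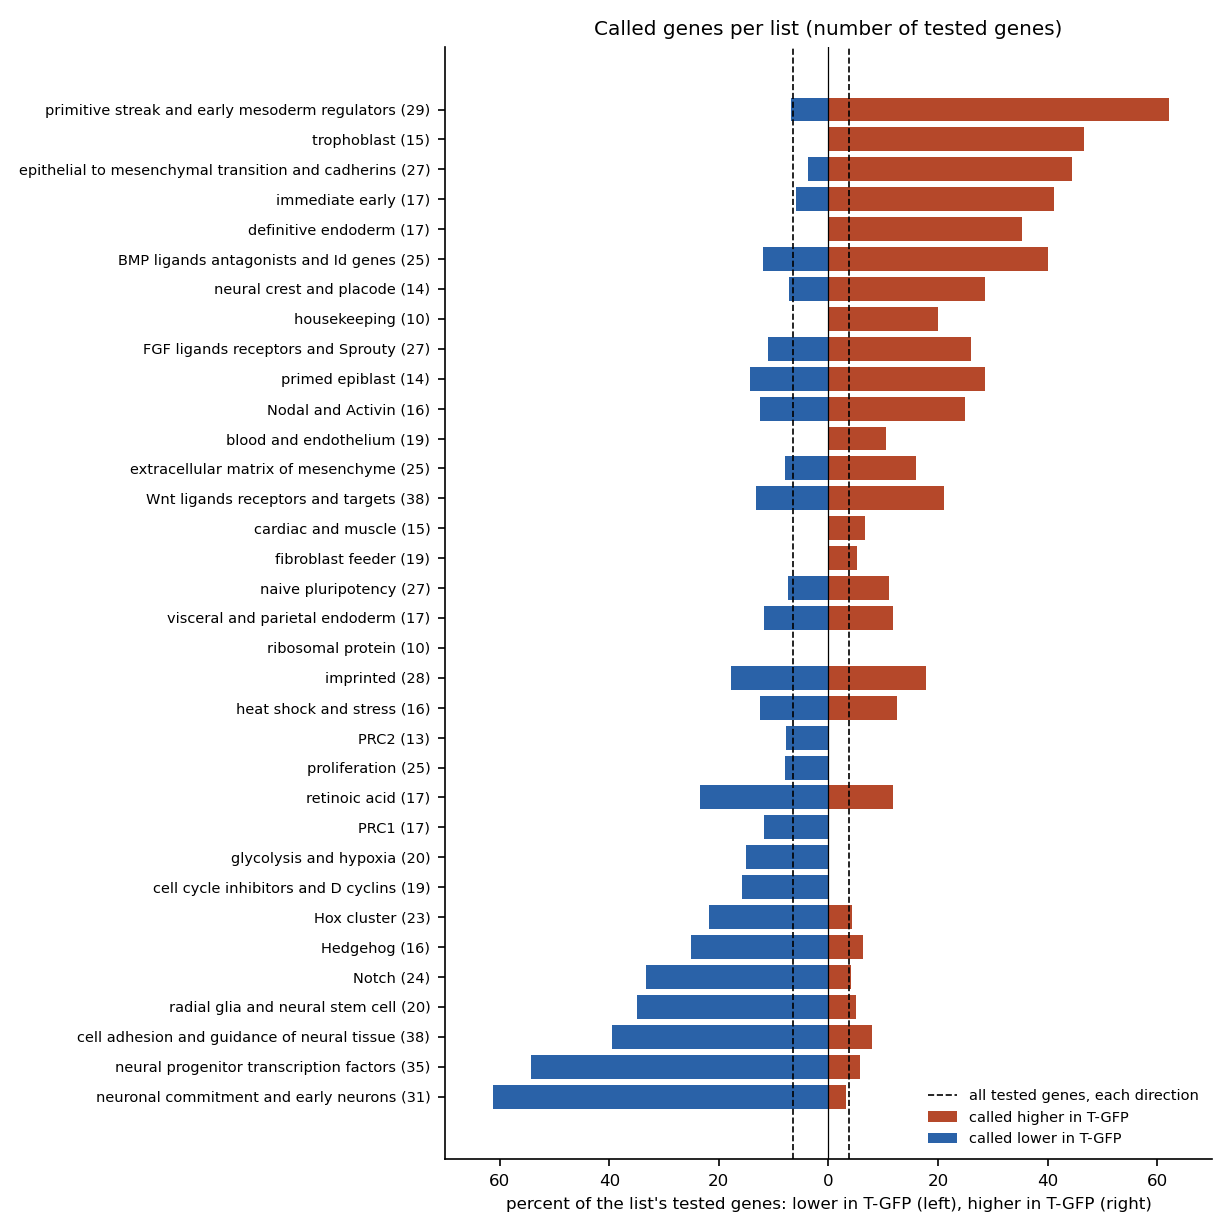
Percent of each list's tested genes called higher in T-GFP cells (right) or lower (left), for lists with at least 10 tested genes, whose number is in brackets. Dashed lines mark the shares over all tested genes, 3.83% higher and 6.49% lower; the streak list (18 of 29 higher) is at one end, and the neuronal (19 of 31 lower) and neural progenitor (19 of 35 lower) lists are at the other.

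Pluripotency genes were called in both directions. Of 27 tested genes of naive pluripotency 3 were higher and 2 lower (median 0.11), and of 14 primed epiblast genes 4 were higher and 2 lower, against 10.3% of all genes called. Pou5f1 had 1348.9 and 1576.5 in T-GFP arrays and 790.5, 666.1 and 604.9 in Sox1-GFP arrays (1.06 ± 0.29, adjusted p = 0.0034), close to the 2-fold limit: without T-GFP replicate 2 it was 0.95 (adjusted p = 0.056) and without Sox1-GFP replicate 3 it was 0.98. Nanog, with 854.8 and 894.2 in T-GFP arrays and 442.7, 472.1 and 439.7 in Sox1-GFP arrays, stayed under it (0.91 ± 0.34, adjusted p = 0.035). Klf5 was higher (1493.3 and 1922.5 in T-GFP and 190.9, 204.8 and 178.1 in Sox1-GFP arrays; 2.95 ± 0.44), but another probe set of it differed by 0.01. Zfp42, whose median in undifferentiated ES cells was 4717.0, was at 155.0 and 213.3 in T-GFP arrays and 256.3, 290.6 and 110.5 in Sox1-GFP arrays, and the groups overlapped. The higher primed epiblast genes were Fgf8, Fgf5, Lef1 and Nodal, and the lower ones Sox3 and Sall2.

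Polycomb genes were called at about the rate of all genes (10.3%): 1 of 13 tested in complex 2 and 2 of 17 in complex 1. Of the genes of Polycomb repressive complex 2, which methylates histone H3, only the catalytic subunit Ezh2 was called, with 955.9 and 875.6 in T-GFP arrays and 2093.6, 2006.9 and 2090.9 in Sox1-GFP arrays (-1.15 ± 0.21, adjusted p = 2.6e-05). The subunits Suz12 (0.78 ± 0.27, adjusted p = 0.021) and Eed (0.36 ± 0.19, adjusted p = 0.14) and the second catalytic subunit Ezh1 (-0.19 ± 0.14, adjusted p = 0.31) were not called. In complex 1, Bmi1 and Cbx6 were lower, Bmi1 with the wider difference (373.9 and 334.5 in T-GFP and 1097.2, 1113.7 and 986.3 in Sox1-GFP arrays; -1.51 ± 0.36, adjusted p = 0.00094). Cbx6 lay near the 2-fold limit and was under it without T-GFP replicate 1 (-0.86) and with quantile normalisation (-0.87), among other alternatives. Ccnd2, a D cyclin, was lower with 536.2 and 428.8 in T-GFP arrays and 3365.0, 3960.6 and 3407.6 in Sox1-GFP arrays (-2.81 ± 0.27, adjusted p = 1.7e-11). Of 25 proliferation genes 2 were called lower (median -0.25), against 6.49% of all tested genes. None of 10 ribosomal protein genes was called, against 10.3% of all tested genes.

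Several of the widest differences lay outside these lists. Gbp2, an interferon-inducible guanylate-binding protein gene, had 1232.3 and 2229.2 in T-GFP arrays and 21.9, 11.3 and 27.7 in Sox1-GFP arrays (5.03 ± 0.55, adjusted p = 7.3e-10), and its relative Gbp2b differed by 4.82 ± 0.54. The related GTPase gene Irgm1 differed by 3.71 ± 0.30. The calcium-binding protein genes S100a6 (4.94 ± 0.78) and S100a10 (4.84 ± 0.45, with 4.28 and 0.99 on other probe sets) were higher too. So was Igfbp3, which binds insulin-like growth factors (5.00 ± 0.58). Of these 6 genes Gbp2, Gbp2b, S100a6 and Igfbp3 were also low in ES replicates 1 to 3 of day 0: Gbp2 was at 13.4 to 21.5 there and at 160.1 to 241.1 in replicates 4 to 7, well under the T-GFP arrays. On the other side, Insl6 had 85.8 and 55.6 in T-GFP arrays and 2366.4, 3058.5 and 2286.2 in Sox1-GFP arrays (-4.67 ± 0.18, adjusted p = 1.7e-24). The neuronal gene Fez1 differed by -4.64 ± 0.23 and Rfx4, a factor of the neural tube, by -4.28 ± 0.20. Of 17 tested immediate early genes, which respond to growth factors and to handling, 7 were called higher and 1 lower, but 2 were higher without T-GFP replicate 2 and 12 with quantile normalisation. Junb, one of the 7, had 436.2 and 606.1 in T-GFP arrays and 33.9, 29.8 and 17.7 in Sox1-GFP arrays (3.22 ± 0.60, adjusted p = 3.6e-05).

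Imprinted genes, which are expressed from 1 parental allele, went both ways, against shares of 3.83% higher and 6.49% lower over all tested genes. Of 28 tested, 5 were called higher and 5 lower (median -0.09), and the lower count was 3 without T-GFP replicate 1 or without Sox1-GFP replicate 3. Phlda2 had 3643.8 and 1612.8 in T-GFP arrays and 90.1, 109.0 and 91.0 in Sox1-GFP arrays (4.26 ± 0.59, adjusted p = 1.6e-07). Slc38a4, an amino acid transporter gene, had 2038.9 and 1589.6 in T-GFP arrays and 125.4, 176.3 and 120.9 in Sox1-GFP arrays (3.42 ± 0.16, adjusted p = 3.7e-21). Igf2, a growth factor gene, had 1702.1 and 2414.7 in T-GFP arrays and 233.4, 300.0 and 362.2 in Sox1-GFP arrays (2.66 ± 0.49, adjusted p = 3.5e-05). Lower was Mest, with 1361.1 and 1465.7 in T-GFP arrays and 7244.9, 7326.3 and 7208.6 in Sox1-GFP arrays (-2.34 ± 0.23, adjusted p = 6.4e-11). Peg12, a gene of another imprinted region, differed by -2.63 ± 0.25.

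Set beside the other groups, Mixl1 and Aplnr were also high in ES cells 6 days after LIF was removed, whereas Fgf8 was so only in some arrays. Mixl1 had 283.0 and 382.1 in replicates 1 and 2 and 1813.6, 1841.9 and 1914.4 in replicates 3 to 5 at day 6, against 14.3 to 31.6 at day 0. Aplnr had 667.4 to 1375.5 at day 6 and 9.5 to 16.3 at day 0. Fgf8 had 151.8 and 148.7 in day 6 replicates 1 and 2 and 554.4 to 780.4 in replicates 3 to 5. At day 2 Fgf8 had 168.0 to 342.0, and at day 0 it had 6.7 to 32.6. Fabp7 was brighter still in NSC arrays (median 5820.2) than in Sox1-GFP arrays, but Crabp1 (median 23.7), Sox1 (43.5) and Hes5 (26.7) were dim in NSC. Over the means of the 15 groups, the genes whose pattern was most like that of Sox1 were Nell2 (Pearson r = 0.985), Hes5 (0.981), Mir124-2hg (0.974), Sst (0.974) and Elavl4 (0.971), a description over 15 points of which 1, the Sox1-GFP mean, stands apart.

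**Figure D5:**
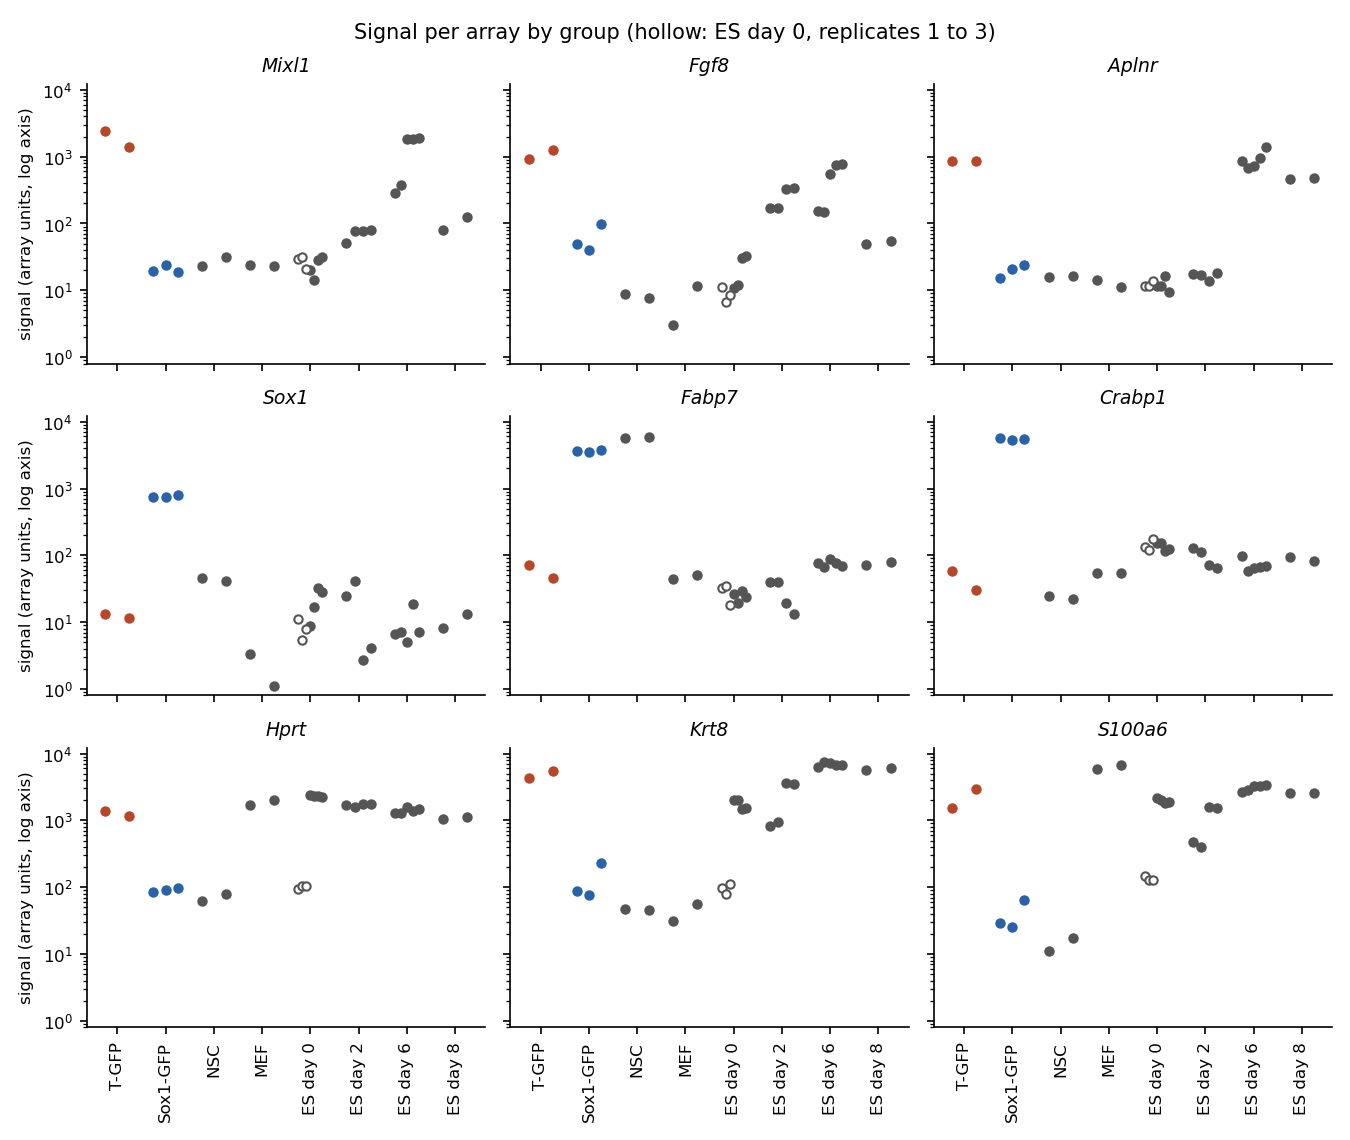
Signal per array (log axis, array units) of 9 genes in T-GFP, Sox1-GFP, NSC and MEF arrays and in wild-type ES cells at days 0, 2, 6 and 8 after LIF withdrawal. In the bottom panels the hollow points, ES replicates 1 to 3 at day 0, lie with the Sox1-GFP arrays for Hprt (94.7 to 103.8) and Krt8 (78.5 to 109.9), while in the upper panels they lie with the other ES arrays of day 0.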

How the data were processed

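Gene expression was measured on 53 Affymetrix arrays in 15 groups, of which 2 T-GFP and 3 Sox1-GFP arrays are compared. The values are linear intensities as the authors deposited them, 1 for each probe set on each array. Neither the summarisation nor the scaling is given in the sources used here. Total RNA was extracted with Trizol and biotin-labelled, per the labels' protocols. Array medians ranged from 50.5 to 63.0 (0.2035 on the log2 scale, under the limit of 0.3 for renormalisation), so the values were used as deposited. The number of arrays limits the precision.

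Of 45037 probe sets, 34945 had 1 gene symbol in the platform annotation, 932 several and 9160 none. The brightest probe set over all arrays stood for each of 18193 genes, and a test was made for the 13807 that exceeded the array median on 2 or more arrays. limma 3.58.1 in R 4.3.3 fitted log2(value + 32) with a mean for each of the 15 groups, so the spread is pooled over all of them (38 residual and 4.64 prior degrees of freedom), with Benjamini-Hochberg adjustment over all tested genes; calls needed an adjusted p below 0.05 and a 2-fold difference or more. Every adjusted p given is limma's. An exact permutation test of 2 against 3 arrays cannot go below p = 0.1 and was not used. The fit was tested on simulated data.

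The members, gene lists and alternatives were chosen with earlier results of these data known. Genes named are the markers, core pluripotency and PRC2 genes, the 20 largest rises and 20 largest falls among called genes without overlap, and from each list up to 8 called and 3 uncalled members; further genes named only as members of a count were chosen after their values were seen. Alternatives were other normalisations, pseudocounts, filters, probe set rules, array subsets, variance models, fold minimums, a replicate block and each array left out.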

Additional observations from a re-analysis of the deposited data

How the results depend on the processing

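Of the 186 named genes that were called, 130 kept their call under all 20 alternatives. The total of 1425 called genes (529 higher, 896 lower in T-GFP cells) became 782 (314 higher, 468 lower) with a pseudocount 4 times higher, 4714 (1734 higher, 2980 lower) with no minimum fold and 3273 (1157 higher, 2116 lower) at 1.5-fold. Leaving out 1 array at a time gave 1352 to 1480 genes, 436 to 584 of them higher and 828 to 963 lower. The other alternatives stayed within 1.5 times of each count, from 1045 called genes when all probe sets of a gene were averaged to 1822 with a pseudocount 4 times lower; the fit on the 5 arrays compared, without the ES arrays that part on Hprt, called 1443. One called gene changed sign: Chac1, a stress gene, was at -1.28 and became 0.15 without T-GFP replicate 1 and -2.72 without replicate 2, the T-GFP arrays having read 83.4 and 810.0. Without T-GFP replicate 2, 30 of the named calls were lost. The deviations of arrays with the same replicate number correlated at 0.093 and 0.143, too few pairs to read the numbers as pairs, and no label pairs them. With a replicate block 1478 genes were called (516 higher, 962 lower), and 7 named calls were lost.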

Other observations

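The genes below were picked, after their values were seen, from those with the widest gaps between the T-GFP arrays, and no list of such genes was counted. Of genes of sterol synthesis or its control, these 6 had more signal in replicate 1 than in replicate 2: Idi1 had 1749.0 and 463.5, Insig1 1239.4 and 373.2, Hmgcs1 3712.7 and 1535.7, Dhcr7 448.3 and 115.8, Fdps 1881.7 and 699.7 and Cyp51 797.8 and 322.3. The interferon-inducible genes Bst2 (337.5 and 1107.6) and Rtp4 (106.9 and 398.5) had more in replicate 2. The imprinted gene Grb10 had 221.5 in replicate 1 and 2922.5 in replicate 2, against 5326.8, 5468.6 and 5354.7 in Sox1-GFP arrays, so its difference of -2.65 ± 0.99 (limma, adjusted p = 0.035) became -0.87 (adjusted p = 0.66) without replicate 1. Neither the time of sampling nor the culture of the replicates is given.

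Of the 9160 probe sets with no gene symbol, 91 were at least 2-fold higher and 119 at least 2-fold lower in T-GFP arrays by the mean difference, without a test. The widest rise was probe set 1419304_at, with 3496.0 and 3731.0 in T-GFP arrays and 33.3, 37.3 and 42.7 in Sox1-GFP arrays, and whether it measures T, for which the annotation names no probe set, is not known here. The widest fall was 1442025_a_at, with 34.6 and 23.7 in T-GFP arrays and 1003.4, 1025.7 and 835.5 in Sox1-GFP arrays, and at most 66.0 in the other 48 arrays.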
